A study of Mus musculus with 12 samples.

Results

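Expanded T cell clones of control mice were compared between the precursor exhausted (Tpex) and the exhausted (Tex) sort, one clone at a time. A clone, or clonotype, was the set of cells with the same nucleotide CDR3 in the alpha chain (TRA) and in the beta chain (TRB) of the T cell receptor, each chain being the one with the most unique molecular identifiers (UMIs) in its cell. The 186 clonotypes with at least 10 cells in the Tpex and Tex libraries together were kept, of 5995 clonotypes in these libraries (3.10%). They held 3247 of 10041 Tpex cells with both chains (32.3%, 31.4 to 33.3%) and 6079 of 7778 such Tex cells (78.2%, 77.2 to 79.1%). In the whole series there were 47124 paired clonotypes.

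The cells were CD8+ T cells sorted from the spleens of wild-type C57BL/6 animals. All of them came from 10 mice that received an Ig control antibody, clone HRPN at 100 µg, 2 times a week for 14 days. Both sorts required high CD44 and PD1. Tpex cells were Slamf6+ Tim3- and Tex cells were Slamf6- Tim3+. Each sort gave 1 library of 5′ gene expression and 1 library of T cell receptor chains, so that 4 of the 12 samples of the series were used. The age of the mice, an infection or a tumour, and which cells came from which mouse are not given in the sources used here. A clone and the mouse it lived in therefore cannot be told apart. With 1 library of each sort there is no replicate check, no test was run, and all intervals are exact 95% Clopper-Pearson intervals that cover counting error only. The cells of a clone are not independent draws.

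The T cell receptor is assembled in each developing thymocyte by joining V, D and J segments of the TRB locus and V and J segments of the TRA locus. Bases are trimmed from the segment ends and untemplated bases are added at the joints. The CDR3, the loop across the joint, is therefore taken as a mark of descent from a single ancestor cell. Under chronic stimulation CD8+ T cells express inhibitory receptors such as PD1. Within them, Slamf6+ precursor exhausted cells are known to renew themselves and to give rise to Tim3+ exhausted cells, which have effector functions and short persistence. The ratio of Tpex to Tex cells within a clone describes how the descendants of one cell were distributed over these states in the sorted samples.

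The receptors the results turn on are printed 5′ to 3′ as CDR3 nucleotides, because they are the tags by which cells of both sorts were joined. Lower case marks the bases that match the end of the named V segment or J segment. Capitals mark the bases that match neither, which are D or untemplated bases in TRB and untemplated bases in TRA. The 2 largest clones had nearly equal cell numbers in both sorts and differed in all 4 segments:
TRBV2-TRBJ2-1 of the largest clone: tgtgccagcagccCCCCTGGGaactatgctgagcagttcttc
TRAV6-7-DV9-TRAJ43 of the largest clone: tgtgctctgagGaacaatgccccacgattt
TRBV5-TRBJ2-3 of the next clone: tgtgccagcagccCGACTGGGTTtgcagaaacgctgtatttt
TRAV12-3-TRAJ26 of the next clone: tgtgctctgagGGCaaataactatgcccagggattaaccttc

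The following 3 clones had nearly all of their cells in Tex. The TRA of the clone that joins TRBV12-2 to TRAV9N-3 held no base outside its V and J segments:
TRBV5-TRBJ2-1 of the TRAV16N clone: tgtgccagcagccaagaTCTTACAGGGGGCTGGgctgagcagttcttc
TRAV16N-TRAJ37 of the same clone: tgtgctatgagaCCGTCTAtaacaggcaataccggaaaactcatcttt
TRBV12-2-TRBJ1-4 of the TRAV9N-3 clone: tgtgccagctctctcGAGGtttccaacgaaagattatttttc
TRAV9N-3-TRAJ16 of the same clone: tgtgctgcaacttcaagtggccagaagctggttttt
TRBV14-TRBJ2-1 of the TRAV13D-4 clone: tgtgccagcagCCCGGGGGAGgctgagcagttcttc
TRAV13D-4-TRAJ22 of the same clone: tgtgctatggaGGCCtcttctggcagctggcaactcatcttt

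The next 3 clones had nearly all of their cells in Tpex. One of them used the same V segments, TRBV5 and TRAV16N, as a Tex clone above, with other J segments and another CDR3. TRBV12-2+TRBV13-2 is a combined name in the deposited table and was kept:
TRBV12-2+TRBV13-2-TRBJ2-7 of the TRAV16 clone: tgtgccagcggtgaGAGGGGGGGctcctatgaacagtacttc
TRAV16-TRAJ33 of the same clone: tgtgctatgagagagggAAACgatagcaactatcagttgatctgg
TRBV5-TRBJ2-3 of a TRAV16N clone: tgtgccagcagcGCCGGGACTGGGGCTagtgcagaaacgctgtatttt
TRAV16N-TRAJ22 of the same clone: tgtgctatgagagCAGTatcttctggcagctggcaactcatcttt
TRBV12-2+TRBV13-2-TRBJ2-2 of the TRAV7D-2 clone: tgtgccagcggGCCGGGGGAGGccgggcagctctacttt
TRAV7D-2-TRAJ30 of the same clone: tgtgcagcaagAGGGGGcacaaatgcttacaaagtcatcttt

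The cell table held 12871 Tpex cells with 70780078 UMIs and 10623 Tex cells with 66719180 UMIs. The median was 4729 UMIs per Tpex cell and 5619 per Tex cell, and the lowest counts were 2558 and 653. Of the Tex cells in the 186 clones, 360 lay below the lowest Tpex count. No values per gene were used here, so marker genes could not be checked. The label of each sort was compared only with the deposited clusters: 90.4% of the clones' Tpex cells lay in cluster 1, and 98.3% of their Tex cells in cluster 3 or 4. In the other direction, 203 Tpex cells of these clones lay in cluster 3 or 4 and 77 Tex cells in cluster 1. The libraries shared 216 cell barcodes. Of these, 135 had both chains in both libraries, and 1 of the 135 carried the same clonotype. Cells with 2 TRB chains, which can be doublets, made up 1.60% of the clones' Tpex cells and 2.43% of their Tex cells. Among all cells with both chains the order was reversed, at 7.19% in the Tpex library and 3.16% in the Tex library. The shares within the clones therefore do not give the rate of such cells in the libraries.

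The first comparison asked whether the clones shared 1 ratio of Tpex to Tex cells. The clones were spread from all Tpex to all Tex, more widely than counting at one share would give. Over all 186 clones the common ratio was 0.534 (0.512 to 0.557), a Tpex share of 34.8%. In 57 clones (30.6%) the ratio lay over 2-fold above this value, and in 89 clones (47.8%) over 2-fold below it, which left 40 within 2-fold. If all clones had one share, binomial counting at their sizes would put 12.4 above and 21.3 below on average. The exact interval of the Tpex share lay above the common share in 48 clones and below it in 59. The absolute ratio depends on how many cells of each sort were loaded, which is not given, so only differences between clones are read from it. The counts above and below also depend on the 2 largest clones, which raised the common ratio. Without them, 64 of 184 clones lay over 2-fold above the common ratio and 70 over 2-fold below it.

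Clones at either extreme were common. The Tpex share of a clone had a median of 23.2% and quartiles of 7.69% and 63.6%. It was under 10% in 53 clones, where one share would put 2.88, and at least 90% in 23 clones, where one share would put 0.0174. Between 30% and 40%, the range that holds the common share, there were 14 clones against 71.9. No Tpex cell was found in 28 clones, of which the largest had 82 cells, against 0.661 from counting. No Tex cell was found in 15 clones, of which the largest had 20 cells, against 0.000852.

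**Figure D1:**
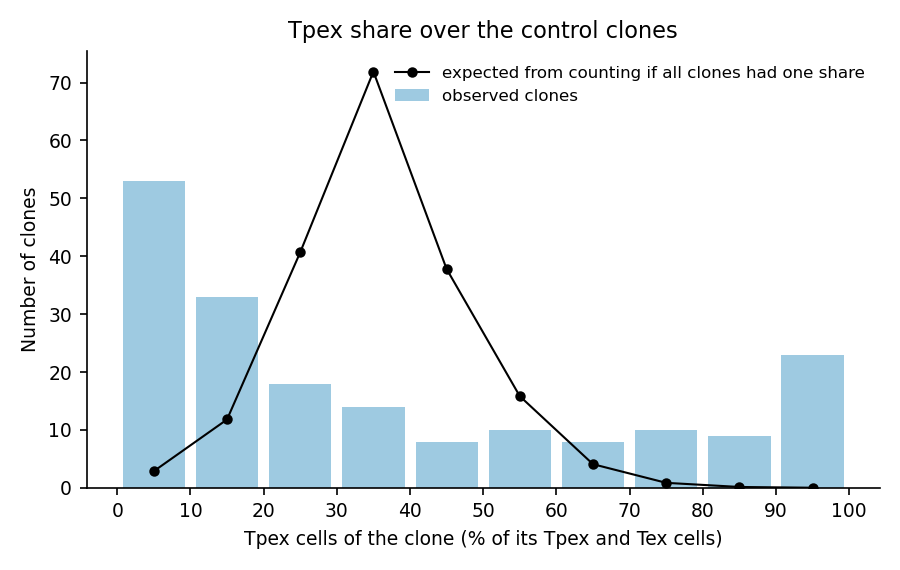
Number of clones (vertical axis) by the Tpex share of a clone in percent, in steps of 10 (horizontal axis). Bars are the 186 observed clones and points the mean number that binomial counting gives if all clones had the common share of 34.8%. The highest bar is at 0 to 10% (53 clones), followed by 33 clones at 10 to 20% and 23 at 90 to 100%, while the points peak at 30 to 40%.

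Put as one number, the Pearson dispersion, the chi-square of the cell counts against one share divided by its degrees of freedom, was 15.4, where pure counting gives about 1. The SD of the Tpex share over clones was 33.7 percentage points, and counting alone would give 11.4. In a binomial model with a normal spread of the log2 ratio between clones, the SD beyond counting was 3.43 log2 units around a mean of -1.45. The corresponding beta-binomial correlation between cells of one clone was 0.439. The log2 ratios themselves, with 0.5 added to each count, ran from -7.37 to 5.36 with a median of -1.65.

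Most clones were nevertheless found in both sorts. Cells of both were present in 143 of the 186 clones. Of 113 clones with at least 10 Tex cells, 85 (75.2%) had a Tpex cell, with a median of 4, and 19 had at least 10. Of 56 clones with at least 10 Tpex cells, 41 (73.2%) had a Tex cell, with a median of 4.5, and the same 19 had at least 10. Across all 186 clones, Spearman's rho of the Tpex and Tex cell numbers was -0.27. Clones were chosen by the sum of these numbers, which by itself moves that value down.

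**Figure D2:**
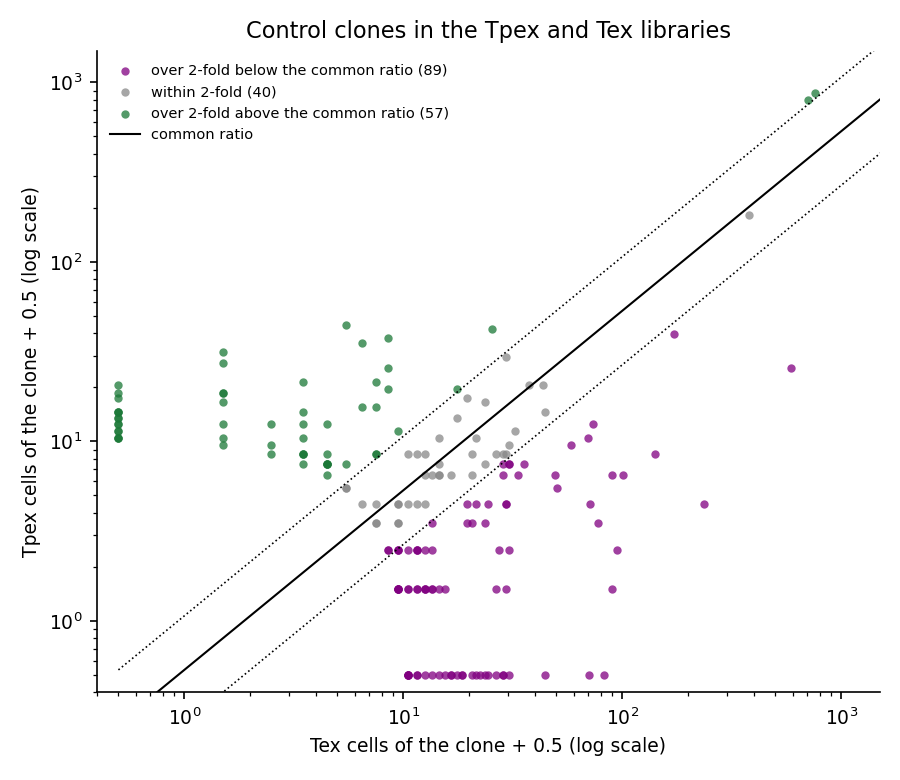
Tpex cells against Tex cells of each of the 186 clones, both with 0.5 added, on log axes. The solid line is the common ratio of 0.534 and the dotted lines are 2-fold from it; 57 clones lie above, 89 below and 40 between, and the 2 largest clones stand at the upper right.

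The largest clones did not share a ratio either. The largest, TRBV2 with TRAV6-7-DV9, had 869 Tpex and 762 Tex cells, a Tpex share of 53.3% (50.8 to 55.7%). The next, TRBV5 with TRAV12-3, had 797 and 702 cells, or 53.2% (50.6 to 55.7%). These were 2.14 and 2.13 times the common ratio, and their intervals overlapped each other almost fully. Together they held 1666 of the clones' Tpex cells (51.3%) and 1464 of their Tex cells (24.1%), and thus weighed on the common ratio, which was 0.343 without them.

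The third clone by size went the other way. TRBV5 with TRAV16N and TRBJ2-1 had 25 Tpex and 589 Tex cells, a Tpex share of 4.07% (2.65 to 5.95%). Of this clone's cells, 5 of the 25 Tpex and 0 of the 589 Tex cells carried 2 TRB chains. The fourth, TRBV5 with TRAV12D-3, had 183 and 379 cells, or 32.6% (28.7 to 36.6%), an interval that holds the common share. The fifth, TRBV12-2 with TRAV9N-3, had 4 and 236 cells, or 1.67% (0.456 to 4.21%). The other 5 of the 10 largest were all low in Tpex. TRBV5 with TRAV7-5 had 39 and 172 cells (18.5%), and TRBV19 with TRAV13-1 had 8 and 141 (5.37%). TRBV31 with TRAV12D-3 had 6 and 100 (5.66%), TRBV3 with TRAV8N-2 had 2 and 94 (2.08%), and TRBV14 with TRAV10D had 6 and 89 (6.32%).

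At the Tex end, the 5 clones with the lowest upper bounds were the TRBV5 clone with TRAV16N and TRBJ2-1, the TRBV12-2 clone with TRAV9N-3 and 3 smaller ones. TRBV14 with TRAV13D-4 had 1 Tpex and 89 Tex cells (1.11%, 0.0281 to 6.04%). TRBV10 with TRAV5-1 had 0 and 82, with an upper bound of 4.40%, and TRBV13-1 with TRAV12-1 had 0 and 70, with an upper bound of 5.13%. Of the 70 Tex cells of the TRAV12-1 clone, 40 carried 2 TRB chains, against 2.43% of the Tex cells of all 186 clones. In these 5 clones the bounds all lay more than 5-fold below the common share.

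At the Tpex end clones were smaller. TRBV12-2+TRBV13-2 with TRAV16 had 31 Tpex cells and 1 Tex cell (96.9%, 83.8 to 99.9%). TRBV5 with TRAV16N and TRBJ2-3 had 27 and 1 (96.4%, 81.7 to 99.9%), and 4 of these 27 Tpex cells carried 2 TRB chains. The remaining 3 had no Tex cell. These were TRBV12-2+TRBV13-2 with TRAV7D-2, with 20 Tpex cells and a lower bound of 83.2%, and TRBV12-2+TRBV13-2 with TRAV16D-DV11, with 18 and 81.5%. The last, TRBV13-1 with TRAV16N, had 17 Tpex cells and a lower bound of 80.5%. The lowest of these lower bounds was over 2 times the common share of 34.8%.

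**Figure D3:**
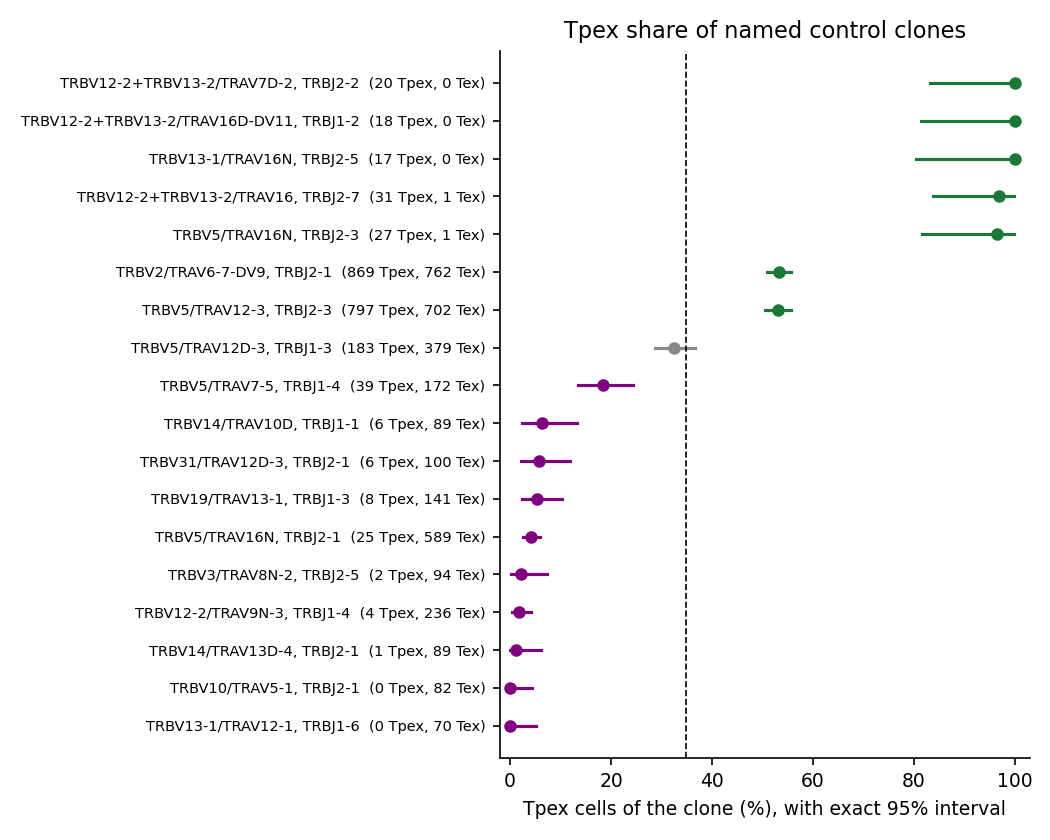
Tpex share in percent of the 10 largest clones and of the 5 clones at each end, as points with exact 95% intervals; cell numbers stand beside each name the dashed line is the common share of 34.8%, and green, grey and purple mark clones over 2-fold above, within and over 2-fold below the common ratio. The TRBV2 clone with TRAV6-7-DV9 and the TRBV5 clone with TRAV12-3 lie at 53%, 1 clone holds the line, and the remaining large clones lie to its left.

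A receptor can be counted as a pair of clonotypes where a cell lineage carries 2 rearranged TRA chains and either is the stronger one in a given cell. Among the 186 clones, 7 pairs shared a nucleotide TRB. In 6 of them at least 54.2% of the cells of the 2 clonotypes carried 2 TRA chains, and the intervals of both members overlapped in every pair. The largest of these, both shown here with their common TRB and 1 of the TRA chains, joined TRBV31 to TRAV12-2 or to TRAV7-4:
TRBV31-TRBJ1-4 of both clonotypes: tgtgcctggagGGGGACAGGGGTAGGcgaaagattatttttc
TRAV12-2-TRAJ22 of the first clonotype: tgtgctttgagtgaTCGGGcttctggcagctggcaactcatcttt

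The TRAV12-2 clonotype had 29 Tpex and 29 Tex cells (50%, 36.6 to 63.4%) and the TRAV7-4 clonotype 17 and 19 (47.2%, 30.4 to 64.5%), and 64 of the 94 cells had 2 TRA chains. In the same order, 7 of the 29 and 5 of the 19 Tex cells carried 2 TRB chains, and no Tpex cell did. With TRBV2, the TRAV17 clonotype had 6 and 49 cells (10.9%) and the TRAV16 clonotype 1 and 10 (9.09%). With TRBV1, the TRAV12D-3 clonotype had 4 and 21 (16%) and the TRAV6D-6 clonotype 1 and 11 (8.33%). The 3 further pairs held 1 Tpex cell or none per clonotype. In 5 of the 6 pairs both members lay below the common share, and in the TRBV31 pair both lay above it. Such pairs are not independent of each other, and joining clones by TRB alone kept the spread (3.40 log2 units).

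The seventh pair differed in kind, because 0 of its 124 cells carried 2 TRA chains. Its TRB was the same base for base, with TRAs from different segments:
TRBV31-TRBJ2-1 of both clonotypes: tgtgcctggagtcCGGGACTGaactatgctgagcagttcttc
TRAV12D-3-TRAJ9 of the first clonotype: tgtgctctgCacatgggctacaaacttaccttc
TRAV12N-2-TRAJ4 of the other clonotype: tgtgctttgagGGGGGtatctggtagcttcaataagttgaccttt

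Both were Tex clones, with 6 Tpex and 100 Tex cells for TRAV12D-3 and 0 and 18 for TRAV12N-2. Their Tex cells had different deposited cell cycle phases, with 35.0% of the 100 (25.7 to 45.2%) and 83.3% of the 18 (58.6 to 96.4%) called S or G2M. Whether they came from 1 mouse or from different mice cannot be told apart.

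The second comparison asked how the ratio went with clone size. The median Tpex share was lower in the larger clones, although the 2 largest clones of all lay above the common ratio. Among 101 clones of 10 to 19 cells, 40 lay over 2-fold above the common ratio and 44 below, with a median Tpex share of 30.0%. Among 60 clones of 20 to 49 cells these were 14 and 28, with a median of 22.6%. Among 17 clones of 50 to 99 cells they were 1 and 12, with a median of 10.9%. Among 8 clones of at least 100 cells they were 2 and 5, with a median of 12.1%. Pooled over cells, the ratio was 0.744, 0.481, 0.174 and 0.627 in these bins, the last value being raised by the TRBV2 clone with TRAV6-7-DV9 and the TRBV5 clone with TRAV12-3. The SD between clones beyond counting was 3.90, 2.92, 2.27 and 2.15 log2 units in the same order.

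Clonotypes below the size limit were mostly Tpex. The 231 of 5 to 9 cells had 858 Tpex and 618 Tex cells, a ratio of 1.39 and a median Tpex share of 66.7%. Of them 60.2% lay over 2-fold above the common ratio of the 186 clones and 25.1% below. Just outside the limit, 25 clonotypes of 9 cells had 112 Tpex and 113 Tex cells, and just inside, 24 clones of 10 cells had 89 and 151. Over all paired cells of both libraries the ratio was 1.29. In the Tpex library 81.7% of the 5364 clonotypes had a single cell, and in the Tex library 56.2% of 1124. Spearman's rho of the log2 ratio with size over the 186 clones was -0.21 (Pearson's r -0.21), a description of points that share the same 2 libraries. Size is the sum of the 2 counts that form the ratio, so the relation is not between separate measurements.

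The third comparison was with the V and J segments. Most segments held clones at both ends of the range of ratios. Each of the 15 TRBV segments used by at least 5 clones had clones on both sides, over 2-fold above and over 2-fold below the common ratio, and so did 10 of 12 TRBJ, 11 of 12 TRAV and 15 of 17 TRAJ segments. Differences between TRBV segments made up 14.6% of the variance of the log2 ratio, where 10.8% would come from the number of segments alone. For TRBJ these were 10.9% and 5.95%, for TRAV 40.2% and 34.1%, and for TRAJ 22.2% and 21.6%. How far the second value of each kind varies was not computed. The segments with the lowest and highest medians are ends of a ranking and are given as a description, with positions on mm10 counted from 1.

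Of the TRBV segments, TRBV16 (chromosome 6, 41151740 to 41152230) had the highest median log2 ratio, 0.85 over 10 clones, with 7 above and 3 below. TRBV12-1 and TRBV12-2+TRBV13-2 followed, at -0.34 and -0.47. TRBV13-3 (chromosome 6, 41130147 to 41130585) had the lowest, -3.01 over 6 clones. It was followed by TRBV1 at -2.48 over 15 clones, 9 of them below, and TRBV2 (chromosome 6, 41047340 to 41047995) at -2.29 over 10. TRBV2 shows how 1 clone sets a pooled value: its cells were 49% Tpex, and 14.3% without its largest clone, which held 88.9% of them. TRBV5 clones ranged from 0 to 100% Tpex. The 5 clones that joined TRBV5 to TRAV16N had 25 Tpex and 589 Tex, 27 and 1, 11 and 9, 6 and 12, and 0 and 14 cells.

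Of the TRBJ segments, TRBJ2-3 (chromosome 6, 41543223 to 41543271) had the highest median, 1.28 over 16 clones, with 12 above and 3 below. TRBJ2-4 followed at 0.74 over 11 clones and TRBJ1-5 at -0.56 over 7. TRBJ2-2 (chromosome 6, 41542957 to 41543007) had the lowest, -2.73 over 9 clones, with 1 above and 8 below. TRBJ1-6 had 0 above and 5 below of 8 clones and TRBJ1-4 0 and 7 of 12, with medians of -2.37 and -2.29. These 2 were the TRBJ segments with no clone over 2-fold above the common ratio.

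Among TRAV segments, TRAV7D-2 (chromosome 14, 52683964 to 52684472) had a median of 4.64 over 5 clones. Of these clones 3 had 20, 13 and 12 Tpex cells and no Tex cell, 1 had 5 of each and 1 had 2 Tpex and 27 Tex cells. TRAV16N and TRAV8N-2 followed, at -0.10 over 12 clones and -1.11 over 8. TRAV14N-2 (chromosome 14, 53259578 to 53260179) had the lowest median, -3.27 over 5 clones, although its cells were 47.4% Tpex. TRAV12-2 and TRAV6D-6 were also low, at -2.58 over 8 clones and -2.43 over 9. Among TRAJ segments, TRAJ7, TRAJ33 and TRAJ17 had the highest medians, at 2.14, 1.28 and 0.74 over 5, 7 and 5 clones. TRAJ15, TRAJ4 and TRAJ48 had the lowest, at -3.07, -2.66 and -2.66 over 8, 7 and 5 clones. The length of the CDR3 had rhos with the ratio of -0.04 in TRB and 0.03 in TRA over the 186 clones. The number of bases outside V and J had rhos of 0.000776 and -0.00332 over the 176 clones whose CDR3 ends matched their segments in both chains, which leaves out the 8 TRBV10 clones.

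**Figure D4:**
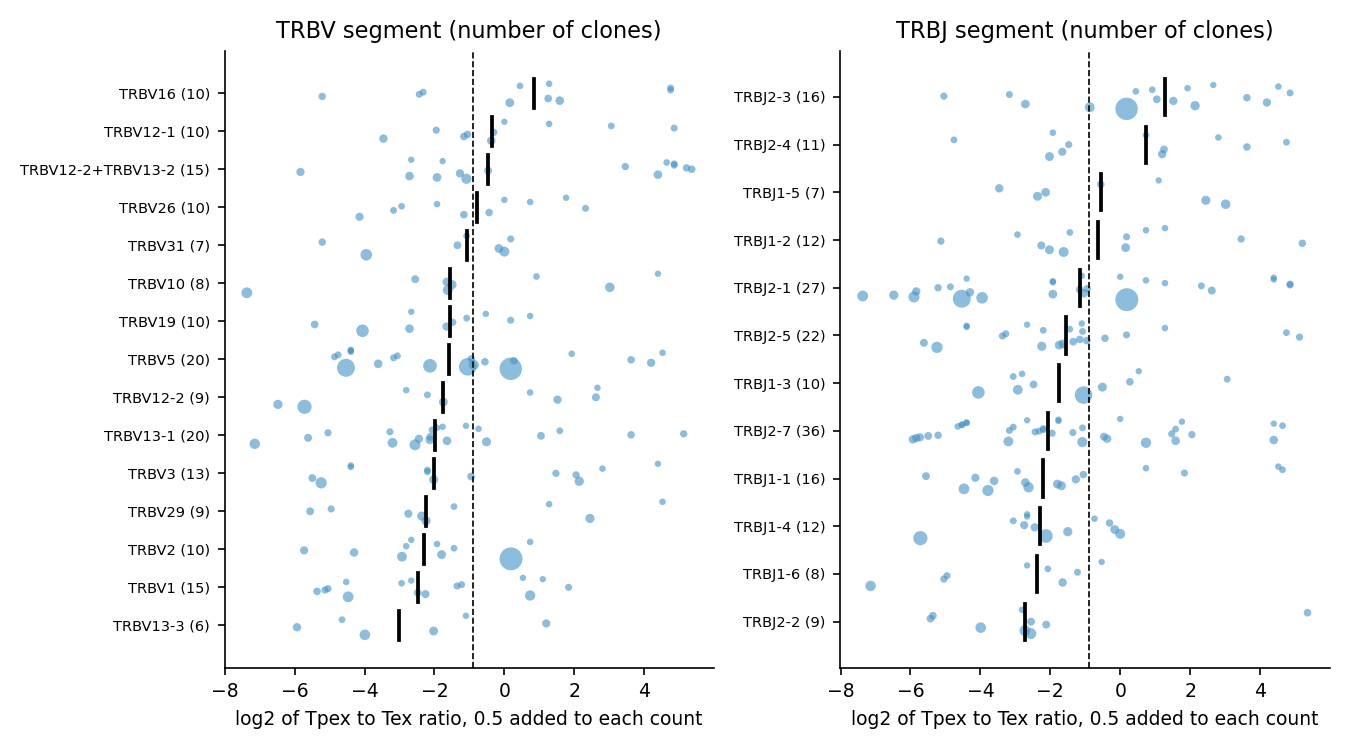
log2 of the Tpex to Tex ratio (0.5 added to each count) of each clone by TRBV segment and by TRBJ segment with at least 5 clones; a larger point is a larger clone, black bars are medians over clones and the dashed line is the common ratio. Every TRBV segment holds clones on both sides of the line, and TRBJ2-3 has the highest median of the TRBJ segments.

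The fourth comparison was with the cell cycle columns of the deposited cell table, an S score, a G2M score and a phase, which the authors derived from the expression of cycle genes. Scores and phases were compared between clones within a library and not between libraries, because depth differed. Across clones, the rhos with the ratio were small. Over 102 clones with at least 5 Tpex cells, rho of the log2 ratio was 0.10 with the mean S score, 0.08 with the mean G2M score and 0.01 with the share of Tpex cells called S or G2M. Over 145 clones with at least 5 Tex cells, the rhos were 0.01, 0.09 and 0.02. Among Tex cells of 4000 to 8000 UMIs they were 0.16, 0.15 and 0.20 over 112 clones. Among such Tpex cells they were 0.01, 0.03 and -0.06 over 71 clones. Tex cells of the 89 clones low in Tpex had a median share called S or G2M of 32.9%, those of the 40 clones near the common ratio 39.0%, and those of 16 high clones 34.7%. For Tpex cells the medians were 18.3% over 16 low clones, 16.7% over 29 near and 19% over 57 high clones. Pooled over cells, where large clones weigh most, the Tex shares were 32.6% (31.0 to 34.2%) in low, 39.0% (36.1 to 42.0%) in near and 41.5% (39.0 to 43.9%) in high clones. Without the 2 largest clones the high clones had 30.4% (22.5 to 39.3%) of 125 Tex cells. The pooled Tpex shares were 18.7% (13.1 to 25.4%), 24.8% (20.9 to 29.0%) and 25.7% (23.9 to 27.4%), and the last was 21.4% (18.7 to 24.4%) without the 2 largest. The largest rhos with the ratio among the other columns were for the median percent of ribosomal protein UMIs, 0.26 in Tpex and 0.23 in Tex. The ratio and median UMIs per cell had rhos of -0.01 and -0.05.

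Clones did differ in phase, mainly in Tex. In the Tex library 36.1% of the cells of these 145 clones were called S or G2M, with a dispersion of 4.03 against one share, and clones of at least 25 Tex cells ranged from 0 to 86.5%. In the Tpex library 25.2% were, with a dispersion of 1.25, and clones of at least 25 Tpex cells ranged from 4% to 31.8%. The 2 libraries hold different numbers of cells per clone, which sets how much spread can be seen. At the top of Tex was TRBV5 with TRAV9N-2, with 32 of 37 Tex cells called S or G2M (86.5%, 71.2 to 95.5%). Of these 37 cells, 14 carried 2 TRB chains, against 2.43% of the Tex cells of all 186 clones. At the bottom was TRBV12-2+TRBV13-2 with TRAV7-6, with 0 of 43 (0 to 8.22%). Among the largest clones, the Tex value was 42.3% for TRBV2 with TRAV6-7-DV9, 42.6% for TRBV5 with TRAV12-3, and 23.1% for TRBV5 with TRAV16N and TRBJ2-1.

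Depth moved with these phase calls. Over the 145 Tex clones, rho between the median UMI count and the share called S or G2M was 0.80, and over the 102 Tpex clones it was 0.26. Among cells of 4000 to 8000 UMIs, the dispersion of the Tex shares was 2.26 over 112 clones, with 10.8% to 40.7% in the 21 clones of at least 25 such cells. For Tpex it was 1.06 over 71 clones. What part the UMI count had in the phase calls was not tested.

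The same clone could also be read in both sorts, and several columns of its Tpex cells went with those of its Tex cells. In the 19 clones with at least 10 cells in each library, rho between the Tpex value and the Tex value was 0.64 for the median UMIs per cell, 0.74 for the mean S score and 0.55 for the mean G2M score. It was 0.61 for the share called S or G2M and 0.79 for the median UMIs of the TRB chain. In the 61 clones with at least 5 cells in each, these were 0.72, 0.30, 0.28, 0.17 and 0.77 in the same order. Without the 2 clones farthest from the Tpex median, the rhos over 17 clones were 0.61, 0.83, 0.39, 0.48 and 0.72. Points share the same 2 libraries, and 2 of the 19 share a TRB. All values describe these clones.

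For UMIs and TRB UMIs per cell, the highest and the lowest of the 19 clones were the same in both sorts, while the lowest mean S scores and the lowest shares called S or G2M were in different clones. TRBV5 with TRAV9N-2, with 20 Tpex and 37 Tex cells, had the highest median UMI count in Tpex (6550) and in Tex (8415), the highest mean S score in both (0.0830 and 0.179), and the highest share called S or G2M, 50% in Tpex and 86.5% in Tex. In this clone 8 of the 20 Tpex and 14 of the 37 Tex cells carried 2 TRB chains. Over all 186 clones 1.60% of Tpex and 2.43% of Tex cells did. What part such cells had in the values of this clone was not tested. TRBV12-2+TRBV13-2 with TRAV7-6, with 20 and 43 cells, had the lowest medians, 3606 and 3652 UMIs. Of the Tex cells of this clone 25.6% lay in cluster 4. The medians over the 19 clones were 4312 UMIs in Tpex and 5626 in Tex. TRB UMIs ranged from 8 in Tpex and 11 in Tex for TRBV2 with TRAV6-7-DV9, the lowest in both, to 26 and 29 for TRBV10 with TRAV12D-3, the highest in both. The clones with TRAV9N-2, TRAV7-6 and the TRBV10 clone with TRAV12D-3 were chosen after their values were seen.

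**Figure D5:**
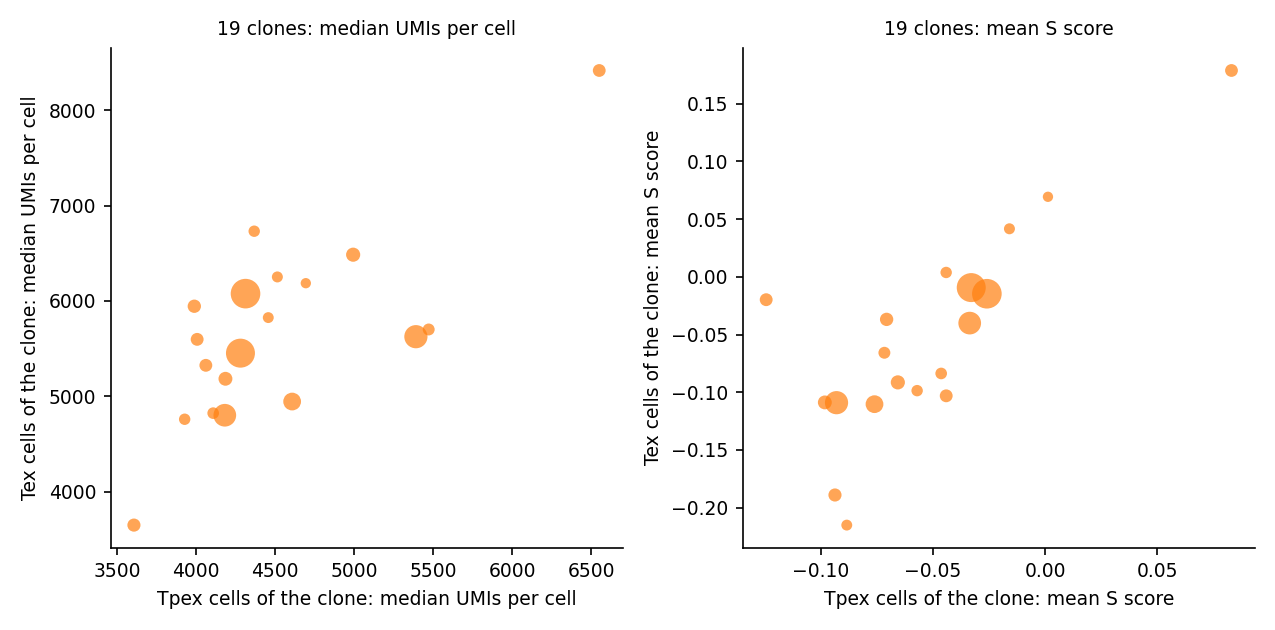
Value of each of the 19 clones with at least 10 cells in each library, in its Tpex cells (horizontal axis) and its Tex cells (vertical axis); the left plot gives median UMIs per cell and the right plot the mean S score, and a larger point is a larger clone. The TRBV5 clone with TRAV9N-2 stands at the upper right of both plots, at 6550 and 8415 UMIs and at scores of 0.0830 and 0.179. In this clone 8 of 20 Tpex and 14 of 37 Tex cells carried 2 TRB chains.

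At like depth the picture differed by column. Among cells of 4000 to 8000 UMIs, rho of the mean TRB UMIs between the sorts was 0.84 over 32 clones with at least 5 such cells in each and 0.95 over 9 clones with at least 10. For the mean S score it was 0.18 over the 32 and 0.78 over the 9. For the share called S or G2M it was 0.00184 and 0.35. Within cluster 1 for Tpex and cluster 3 for Tex, median UMIs had a rho of 0.65 over 16 clones.

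Some of the clonotypes were also found in the PD1- effector sort (Teff) of the same mice. Of 17420 paired Teff cells, 25 carried one of the 186 clonotypes, and they belonged to 9 clones, 5 high in Tpex, 2 low and 2 near the common ratio. The clone that joins TRBV12-2+TRBV13-2 to TRAV8N-2 had 11 of these cells beside 16 Tpex cells and 1 Tex cell. A Tex clone, TRBV13-3 with TRAV4N-3, had 5 beside 0 Tpex and 12 Tex cells. The remaining 7 clones had 1 or 2 Teff cells each. The share of all 5995 clonotypes found in Teff is not given here, so these counts cannot be set against it.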

How the data were processed

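The members of the comparison, the naming rules and the gene lists were chosen with earlier results of these data known. Reads were processed by the authors with Cell Ranger 3.0.2 and Seurat 4.0.0 on build mm10, per the submitters' processing notes; the sources used here do not state how doublets were handled. Per the file headers, the deposited cell table gives UMI and gene counts, percent mitochondrial and ribosomal UMIs, 2 cell cycle score columns, phase and cluster. The deposited contig table gives chain, V and J segment, CDR3 and UMI counts. Each contig was matched to its cell through the library name and the barcode, and barcodes outside the cell table were left out. Cells needed 1 TRA and 1 TRB at least. No doublet caller was run.

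Log2 ratios added 0.5 to each count. Dispersion was the Pearson chi-square over its degrees of freedom. The spread between clones was fitted by maximum likelihood on a fixed logit grid, and the fit was tested on simulated data. How well a normal spread suits the observed shares is not given here. CDR3 ends were matched to the V and J segments of GENCODE M21 (GRCm38, that is mm10), and 176 of 186 clones matched by at least 6 bases at both chains. Named clones were the 10 largest, the 5 with the highest lower bound and the 5 with the lowest upper bound of the share, and pairs with a shared TRB. Named segments were the 3 at each end by median, with at least 5 clones. Marker lists could not be used without gene values. Alternatives changed the clonotype definition, chain and UMI minimums, size limit, clusters and largest clones; leaving out the 2 largest was added after seeing the data. Python 3.11.15, numpy 2.4.6, pandas 2.3.3, scipy 1.17.1 and matplotlib 3.10.9 were used.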

Additional observations from a re-analysis of the deposited data

Results flagged for a closer look

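Cell barcodes outside the deposited cell table also carried receptors of these clones. In the control Tpex library, 355 of 1218 barcodes with both chains that were not in the cell table had one of the 186 clonotypes. In the control Tex library, 171 of 233 did. They were left out of the report's comparisons, and the common ratio with all paired barcodes counted was 0.589, over the 204 clonotypes that then reached 10 barcodes.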

How the results depend on the processing

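No paired analysis was possible because each sort was 1 library with no replicate number in the labels, and no test was run. The spread between clones stayed at 3.30 to 3.77 log2 units under all alternatives but a limit of 20 cells, where it was 2.81. The common ratio was 0.447 without the largest clone, 0.343 without the 2 largest, 0.465 without the 10 largest, 0.480 with at least 5 TRB and 3 TRA UMIs and 0.508 in the clusters that match the sort. It was 0.505 for clones of at least 20 cells, 0.613 for those of at least 5, 0.589 with all paired barcodes and 1.29 over all paired cells. The numbers above and below by over 2-fold were 64 and 70 of 184 clones without the 2 largest. They were 17 and 45 of 85 clones of at least 20 cells, and 190 and 153 of 417 of at least 5. So the larger number lay below at 10 or 20 cells and above at 5. The rho with size stayed between -0.32 and -0.16. Of 72 alternatives for the cell cycle columns, 71 stayed within a set margin of the main rho. The main rhos were small, and the margin was wide enough to hold changes of sign. With the Tpex G2M score, rho went from 0.08 to -0.02 in the clusters that match the sort. With the Tpex share called S or G2M, it went from 0.01 to -0.10 for clones of at least 20 cells. The count within the margin therefore does not show that these rhos are stable. In Tex cells of 4000 to 8000 UMIs, rho became 0.16 with the S score and 0.15 with the G2M score. With the share called S or G2M it became 0.20, which was outside the margin, and the cause was not tested. TRAV16N was -1.46 log2 from the common ratio pooled over cells, and 0.81 by the median over clones and 1.14 without its largest clone, which held 75.6% of its cells. TRBV2 pooled was 0.84, and -1.39 by the median over clones. The Tpex share of the largest clone was 50.2% under the same chain minimum, outside its interval, and the 154 other values of named clones under alternatives stayed inside. With 10 cells, a clone's interval is wide, and 79 of the 186 held the common share.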
